A study of Mus musculus with 4 samples.

Results

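Checkpoint and costimulatory receptors were examined in ILC2s and in the other immune cells sorted with them. The 9 genes *Ctla4*, *Pdcd1*, *Tigit*, *Lag3*, *Icos*, *Cd28*, *Tnfrsf4*, *Tnfrsf9* and *Tnfrsf18* were chosen by name, and their rows were taken from a pair of deposited marker tables that together held 3488 genes. One table set 21 named cell types of the sorted cells against the remaining cells, and the other set 10 subclusters of ILC2s, numbered from 0, against the remaining ILC2s. Wild-type BALB/c mice aged 8 weeks were injected intraperitoneally each day for 5 days with PBS or with rIL-33 (recombinant IL-33, a dose of 0.5 µg), and liver and lung cells were sorted as lineage-negative CD127+Thy1+ST2+ cells. The 4 groups (liver after rIL-33, lung after rIL-33, liver after PBS, lung after PBS) were each 1 droplet-based 3′ single-cell library. Both tables pooled the 4 libraries and carried no value per library or per cell, so neither the treatments nor the organs were compared here, no replicate error could be given, and the tables give neither the depth nor the number of cells behind a value. How each cluster divides among the libraries was not analysed here. For the same reason a cluster made mostly of cells of 1 library and a cluster of 1 cell state cannot be told apart.

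These receptors set the strength of a lymphocyte response. CD28, ICOS, CTLA-4 and PD-1 belong to the immunoglobulin superfamily, and CTLA-4 competes with CD28 for the ligands CD80 and CD86, whereas ICOS binds ICOS ligand and PD-1 binds PD-L1 and PD-L2. TIGIT and LAG-3 are further inhibitory receptors of the same superfamily. OX40 (*Tnfrsf4*), 4-1BB (*Tnfrsf9*) and GITR (*Tnfrsf18*) are costimulatory TNF receptors that signal through TRAF adaptors. ILC2s have no antigen receptor, respond to IL-33 through ST2 (*Il1rl1*), and are known to carry ICOS, GITR and, after activation, PD-1.

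A row of a table, 1 gene in 1 cluster, is called a listing, and each listing gave 2 shares of cells with a value above 0, that of the cluster and that of all cells outside it. A gene is called found in a cell, and the cell positive, when that value was above 0. The assay behind either table is not stated, so this is not necessarily detection of a transcript. Rows existed only for clusters in which the gene was higher on average, and in every row the larger share was at least 25.0%, so a missing row can mean lower, similar, rare or not tested. Of the 9 receptors, 6 had a row in the cell type table, with 21 listings, and 5 had a row in the ILC2 subcluster table, with 13 listings. *Tigit* and *Lag3* had no row in either table. *Tnfrsf4* and *Tnfrsf9* had none in the ILC2 subcluster table, and *Tnfrsf18* had none in the cell type table. In the subcluster table a receptor with a row was listed for a median of 2.0 subclusters, against 1 for all 2629 genes. In the cell type table the median was 2.5 cell types, against 2 for all 1679 genes.

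Some of the genes are neighbours in the mouse genome (GRCm38, the same assembly as mm10, with GENCODE M21 genes), and all 9 are protein coding. *Cd28* (chr1:60716800-60773359, plus strand), *Ctla4* (chr1:60887000-60915832, plus strand) and *Icos* (chr1:60977927-61000320, plus strand) follow each other, with 113.6 kb between the first pair, 62.1 kb between the second, and 0 protein-coding genes between them. *Pdcd1* lies on the same chromosome at chr1:94038305-94052553 on the minus strand. *Tnfrsf4* (chr4:156013843-156016612, plus strand) and *Tnfrsf18* (chr4:156026164-156028895, plus strand) are 9.6 kb apart, also with 0 protein-coding genes between them, and *Tnfrsf9* lies at chr4:150914562-150946102 on the plus strand. *Tigit* is at chr16:43648867-43664146 and *Lag3* at chr6:124904361-124911705, both on the minus strand. *Ctla4* and *Icos* overlap a pseudogene and an unclassified gene on their own strand (*Rpl18-ps1* and *Gm37039*), and *Tnfrsf9* and *Tnfrsf18* overlap genes on the other strand (*Camta1* and *Gm16008*). Reads within the overlaps on 1 strand may be shared, and whether the counting used strand is not given in the sources used here.

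RefSeq promoter sequence (GRCm38.p6) was matched for 6 of the 9 genes. The 250 bases before the annotated start are shown for *Ctla4* (chr1:60908775-60909024, plus strand) and *Pdcd1* (chr1:94052554-94052803, minus strand), because these inhibitory receptors were listed together in 3 ILC2 subclusters. They are written 5′ to 3′ on the strand of the gene, and capitals mark GGAAA, the NFAT core, on either strand.
Ctla4: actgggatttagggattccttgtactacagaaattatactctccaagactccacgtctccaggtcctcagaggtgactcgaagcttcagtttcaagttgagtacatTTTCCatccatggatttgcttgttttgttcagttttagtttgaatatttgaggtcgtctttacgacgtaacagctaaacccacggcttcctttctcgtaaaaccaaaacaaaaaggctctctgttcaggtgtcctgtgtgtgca
Pdcd1: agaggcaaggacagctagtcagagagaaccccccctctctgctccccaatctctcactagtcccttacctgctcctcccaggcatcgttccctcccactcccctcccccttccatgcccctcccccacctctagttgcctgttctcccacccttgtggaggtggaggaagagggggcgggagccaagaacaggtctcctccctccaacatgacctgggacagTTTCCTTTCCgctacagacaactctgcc
The *Ctla4* window held 1 match, starting at position -144 from the start, and the *Pdcd1* window held 2, at -28 and -23, all on the strand opposite to the gene. GGAAA was present in 55.6% of 32851 promoter windows of the same length. The AP-1 motif TGANTCA (6.7% of windows), the GATA motif AGATAA (10.0%) and TATAAA (12.4%), searched on both strands, had 0 matches in either window. The start that RefSeq gives for *Ctla4* differs from the start of the GENCODE gene.

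In ILC2s, *Ctla4*, which encodes the inhibitory receptor CTLA-4, was the receptor with the most listings. It was listed for subclusters 1, 2, 4, 6 and 8. The share of cells with *Ctla4* was 50.9% in subcluster 1 against 29.5% of all other ILC2s, 55.4% against 28.9% in subcluster 2, and 61.3% against 31.0% in subcluster 4. It was 55.6% against 33.0% in subcluster 6, and 73.0% against 33.5% in subcluster 8. Inside these 5 subclusters the share therefore ran from 50.9% to 73.0%, and every one was at least 1.68 times that of all other ILC2s. *Ctla4* had the largest difference of shares of the 131 genes listed for subcluster 2 and the fifth largest of the 253 genes listed for subcluster 8. In subcluster 4, where 802 genes were listed, it ranked 509.

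The sizes of the clusters, which the tables do not state, were solved from the shares, and they placed 52.00% of ILC2s in the 5 subclusters that listed *Ctla4*. Of all ILC2s, 33.79% had a value above 0. In the listing subclusters together the share was 54.95%, and in subclusters 0, 3, 5, 7 and 9 together it was 10.86% ± 0.33 (bound from rounding and from the fitted sizes). The listing subclusters held 84.57% ± 0.50 of all *Ctla4*-positive ILC2s. Subclusters 1 and 2 contributed 30.20% and 30.04% of the positive cells, subcluster 4 contributed 16.75%, subcluster 6 contributed 6.12% and subcluster 8 contributed 1.44%. Subcluster 8 thus had the highest share, yet held few of the positive cells, because it made up 0.67% of ILC2s. The arithmetic also limits the share in the largest subcluster, subcluster 0 (27.34% of ILC2s), to at most 19.1%, and in subcluster 3 to at most 35.0%.

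**Figure D1:**
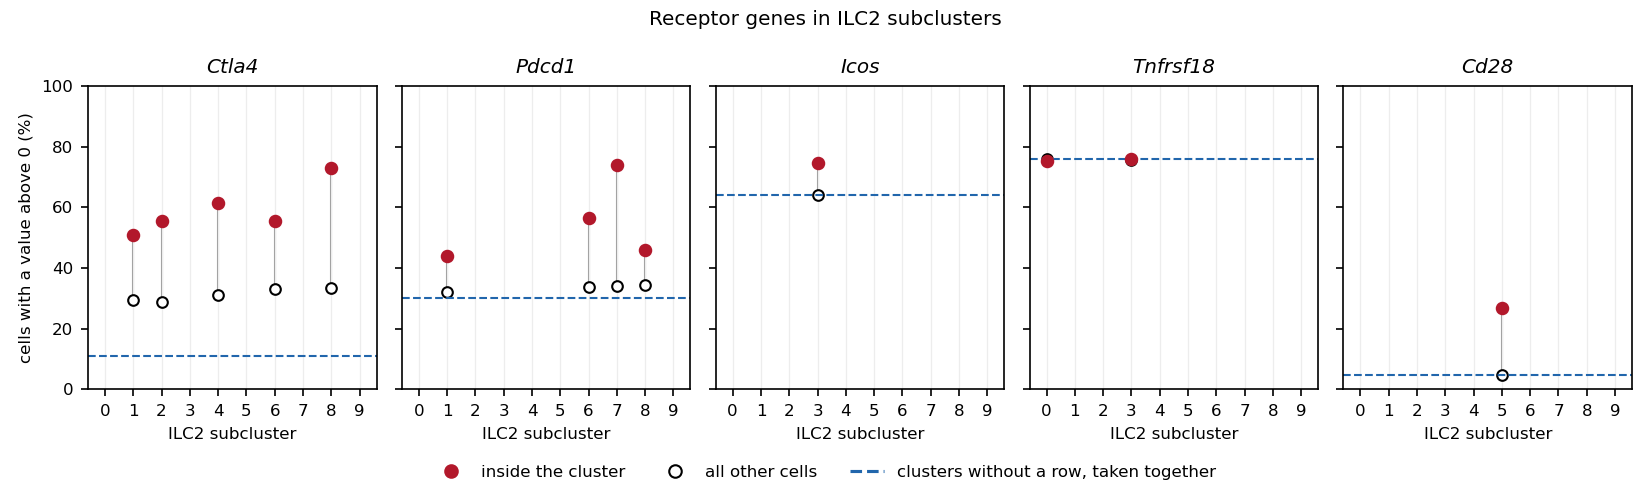
Cells with a value above 0 (percent, vertical axis) for the 5 receptor genes with a row in the ILC2 subcluster table, by subcluster (horizontal axis). Filled points are the share inside a subcluster with a row, open points the share in all other ILC2s, and the dashed line the share over the subclusters without a row as 1 group. *Ctla4* reached 50.9% to 73.0% in 5 subclusters over a dashed line at 10.86%, whereas both *Tnfrsf18* points lay on their line.

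*Pdcd1*, which encodes the inhibitory receptor PD-1, was listed for subclusters 1, 6, 7 and 8. Its share was highest in subcluster 7, at 74.0% against 34.0% of all other ILC2s, the second largest difference of the 270 genes listed there. It was 56.6% against 33.7% in subcluster 6, 46.1% against 34.5% in subcluster 8, and 44.0% against 32.2% in subcluster 1. In subclusters 1 and 8 the difference was 11.8 and 11.6 percentage points, and *Pdcd1* ranked 287 of 363 and 220 of 253 genes there. The 4 listing subclusters made up 25.86% of ILC2s and held 35.55% ± 0.30 of the *Pdcd1*-positive ILC2s. In these subclusters together the share was 47.52%, and in the other 6 together it was 30.05% ± 0.13. Unlike *Ctla4*, with 15.43% of its positive cells elsewhere, most *Pdcd1*-positive ILC2s (64.45%) lay in subclusters without a row. Subcluster 1 alone held 25.52% of them, and subcluster 7, with its high share, held 3.04%.

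*Ctla4* and *Pdcd1* were both listed for subclusters 1, 6 and 8. Background rates were 13.8% of the 2629 genes for subcluster 1, 7.23% for subcluster 6 and 9.62% for subcluster 8, and 2 of the 5 receptors with a row were listed for each. In subcluster 6 the shares were close, at 55.6% for *Ctla4* and 56.6% for *Pdcd1*, but in subcluster 8 they were 73.0% and 46.1%. Subclusters 2 and 4 listed *Ctla4* alone, and subcluster 7 listed *Pdcd1* alone. The tables give shares for 1 gene at a time, so how many cells had both receptors is unknown. *Il13*, the type 2 cytokine the study followed, was listed for subclusters 1, 2, 4, 7 and 8. It shared subclusters 1, 2, 4 and 8 with *Ctla4* and 1, 7 and 8 with *Pdcd1*, and subcluster 6 listed both receptors without *Il13*. Of the 2629 genes, 4.98% were listed for subcluster 2, 30.5% for subcluster 4 and 10.3% for subcluster 7. *Il13* was above 0 in 56.34% of the cells of its 5 subclusters and in 17.84% ± 0.28 of the other ILC2s.

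**Figure D2:**
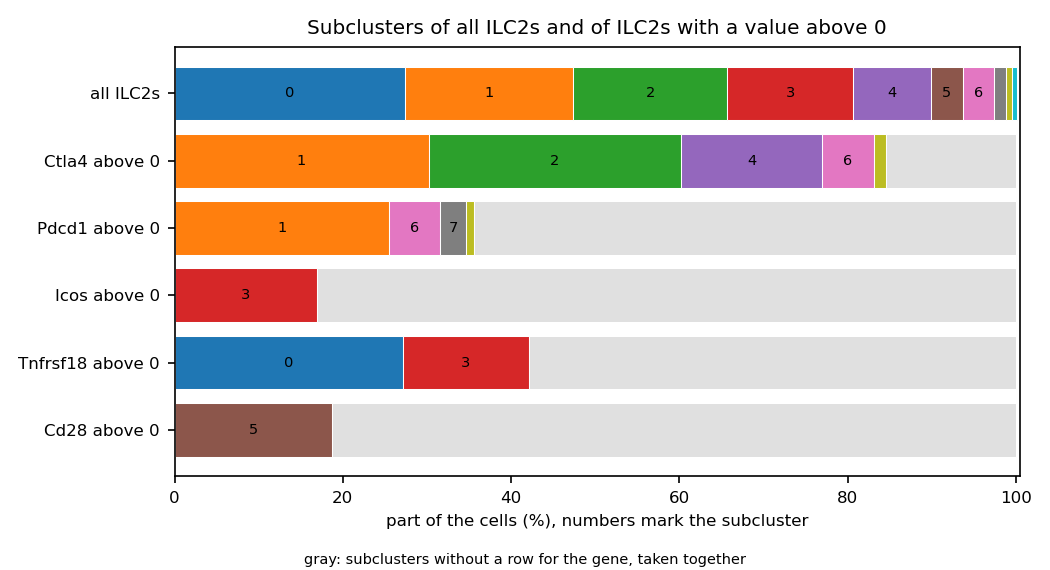
Solved part of the cells (percent, horizontal axis) that lies in each subcluster, for all ILC2s and for the ILC2s with a value above 0 for each receptor gene. Colours and numbers mark subclusters with a row, and gray the pool of subclusters without a row. The gray part is 15.43% for *Ctla4* and 64.45% for *Pdcd1*.

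*Icos*, the receptor for ICOS ligand, was listed for subcluster 3 alone, where 74.5% of cells had a value above 0 against 64.1% of all other ILC2s. It was thus found in 65.65% of all ILC2s, and subcluster 3, which made up 14.92% of ILC2s, held 16.93% of the positive cells. *Tnfrsf18*, which encodes GITR, was listed for subclusters 3 and 0, but its shares hardly differed there from those elsewhere. They were 75.8% against 75.7% in subcluster 3 and 75.2% against 75.9% in subcluster 0. Of all ILC2s, 75.71% had *Tnfrsf18*, and the share in the 8 subclusters without a row was 75.93% ± 0.12. The higher average that a row implies was thus not matched by a larger share of positive cells in subcluster 0, and in subcluster 3 by 0.1 points. Subcluster 3 listed both costimulatory receptors, 2 of the 5 receptors, where 9.01% of the 2629 genes were listed. It shared no receptor with the subclusters of *Ctla4* and *Pdcd1*. Detection differs between transcripts, so these shares do not rank one receptor's expression against another's.

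*Cd28*, the costimulatory receptor of T cells, was rare in ILC2s. It was listed for subcluster 5 alone, with 26.8% of cells against 4.7% of all other ILC2s, a ratio of 5.70. Subcluster 5 made up 3.87% of ILC2s and held 18.69% ± 0.30 of the *Cd28*-positive ones, and the pooled share in the other subclusters was 4.70%. *Cd3e*, a T cell receptor component that ILC2s should lack, was above 0 in the same share (4.7%) of the ILC2s outside subcluster 5. The study had left out cells that expressed *Cd3*, so the *Cd3e* share sets no background level for *Cd28*. Whether the *Cd28* share there reflects expression was not tested, and the share that free RNA gives in droplets was not measured here. Subcluster 5 differed from the others in what its rows held. Of its 1000 listings, 978 (97.8%) had a share inside that was not above the share outside, and *Cd28* was among the 22 that had a larger one, with the fifth largest difference. The genes above it, named after their values were seen, were *Ms4a4b* (49.6% against 10.2%), the T cell receptor component *Cd3e* (32.0% against 4.7%), the T cell kinase *Txk* (42.8% against 17.5%) and the chemokine receptor *Cxcr3* (25.7% against 2.7%).

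T cell markers in subcluster 5 were mixed. Of 9 T cell markers, 4 had a row in the ILC2 subcluster table and 3 were listed for subcluster 5, where 38.0% of the 2629 genes were listed. Beside *Cd3e*, given above, *Cd3g* was found in 39.5% of its cells against 32.6% of the others, and *Trbc1* in 45.0% against 81.0%. Of 4 gamma delta T cell markers, *Trdc* was found in 25.6% against 7.0% and *Trdv4* in 9.9% against 26.6%. Cells that expressed *Cd3* had been left out of the ILC2s by the study, and the gate was negative for CD3e and TCRb protein. The part of T cells in the *Cd28* result was not tested. All 8 ILC2 markers had a row in the subcluster table, among them *Gata3*, found in 90.90% of all ILC2s, and *Il1rl1*, found in 89.20%. Subcluster 5 listed 0 of 8. The others ranged from 1 of 8 (subclusters 4 and 6, where 30.5% and 7.23% of genes were listed) to 4 of 8 (subclusters 3 and 7, 9.01% and 10.3%). A missing row can mean a similar level.

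Markers of other cells were also listed for the subclusters of *Ctla4* and *Pdcd1*. The B cell gene *Cd79b* (38.7% against 19.9%) and the endothelial gene *Pecam1* (38.1% against 24.6%) were listed for subcluster 1, each the 1 gene of its list with a row, and *Pecam1* also for subcluster 8 (49.4% against 27.1%). The NK cell gene *Gzma* was listed for subcluster 4 (25.8% against 9.7%), as 1 of 6 NK cell and ILC1 markers. *Cd3g* was found in 46.1% of cells of subcluster 6 against 32.4%, and the gamma delta receptor gene *Tcrg-C1* in 40.1% against 25.5% there and in 42.0% against 25.8% in subcluster 7. *Trbc2* was listed for subclusters 1, 2 and 6 (86.1%, 87.2% and 88.0%) and *Trbc1* for subcluster 7 (86.5%), with shares of 79.5% to 81.5% in all other ILC2s. The Treg marker *Ikzf2* was listed for subcluster 7 (69.0% against 48.5%). The part of such cells in the *Ctla4* and *Pdcd1* shares was not tested. Markers of ILC3s, basophils and macrophages had 0 rows in the subcluster table. Subcluster 4, one of the *Ctla4* subclusters, listed all 4 proliferation markers, where 30.5% of the 2629 genes were listed, with *Mki67* in 54.7% against 15.0% and *Top2a* in 71.5% against 26.2%, and *Top2a* was also listed for subclusters 6 (49.0% against 29.6%) and 8 (49.4% against 30.2%). The part of cell division in the *Ctla4* shares was not tested.

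Other genes of these pathways were followed through 5 lists. Of 12 ligands of the receptors, 2 had a row in the ILC2 subcluster table. *Lgals3*, a galectin that binds LAG-3, was listed for subclusters 1, 6, 7 and 8, with its largest difference in subcluster 1 (97.8% against 77.6%). *Icosl*, the ligand of ICOS, was listed for subclusters 9 (38.3% against 25.5%) and 0 (27.2% against 24.9%), and for subcluster 5 with a smaller share inside (9.9% against 26.2%). Of 16 other TNF receptor genes, 3 had a row. *Tnfrsf25*, the receptor of TL1A, and *Cd27* were listed for subcluster 1 (71.2% against 50.1% and 44.6% against 28.8%), and *Tnfrsf8*, which encodes CD30, for subcluster 4 (29.6% against 3.3%).

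Of 17 other immunoglobulin and lectin coreceptors, 7 had a row. *Klrg1*, an inhibitory lectin receptor of mature ILC2s, was listed for subclusters 1, 2, 6 and 8, at 92.1%, 85.6%, 91.9% and 85.4%. It was found in 53.80% ± 0.22 of the ILC2s of the other subclusters. *Cd48* (89.9% against 56.5%) and *Vsir*, which encodes the inhibitory receptor VISTA (51.0% against 19.1%), were listed for subcluster 1. Of 20 adaptors and phosphatases, 9 had a row. *Ptpn6*, which encodes the phosphatase SHP-1, was listed for subclusters 7 (49.5% against 20.0%) and 4 (45.2% against 17.9%), and *Traf1*, an adaptor of TNF receptors, for subclusters 8 (89.9% against 64.2%) and 1 (82.0% against 59.9%). The kinase *Lck* was found in 40.3% against 14.9% in subcluster 4. In subcluster 5, 5 of 6 listed adaptors had a smaller share inside, such as *Traf1* at 32.0% against 65.6%, as had nearly all genes listed there (97.8% not above).

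Of 18 transcription factors of stimulated lymphocytes, 12 had a row, and subcluster 7, where the share of *Pdcd1* was highest, listed 6 of them, where 10.3% of the 2629 genes were listed. Subcluster 8 listed 5 (9.62% of genes), and subclusters 1 (13.8%) and 3 (9.01%) listed 4 each, although subcluster 3 had no row for *Pdcd1*. In subcluster 7, *Tox2* was found in 64.5% of cells against 25.3%, *Nr4a1* in 89.0% against 59.7%, and *Rel* in 49.5% against 21.4%. *Tox2* was also listed for subclusters 6 (55.0% against 24.7%), 4 (49.2% against 23.5%) and 2 (42.3% against 22.2%). Of these 4 subclusters, 2 and 4 had no row for *Pdcd1*, and subclusters 1 and 8, which listed *Pdcd1*, had no row for *Tox2*.

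**Figure D3:**
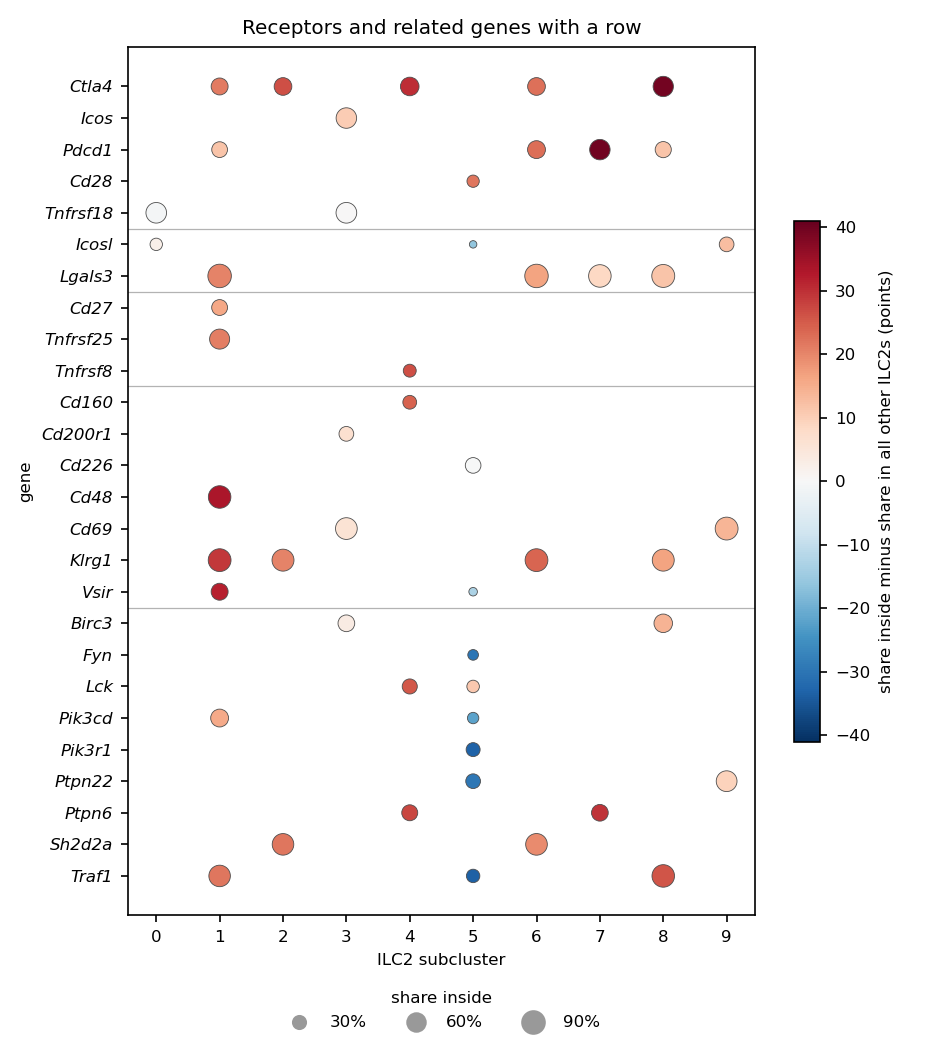
Listings of the receptors and of related genes (rows; lines separate receptors, ligands, other TNF receptors, other coreceptors, and adaptors and phosphatases) by ILC2 subcluster (horizontal axis). Point area grows with the share inside, and colour gives the share inside minus the share in all other ILC2s in percentage points. *Ctla4* in subcluster 8 (39.5 points) and *Pdcd1* in subcluster 7 (40.0 points) are the darkest points.

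Genes with the listings most like those of a receptor were found by the Jaccard index of their subclusters, which is 1 when both sets are the same, with ties ordered by the mean difference of shares. For *Ctla4*, 6 genes had the same 5 subclusters, and the nearest were *Impa2* (mean difference 13.0 points) and *Psmb9*, a subunit of the immunoproteasome (28.8 points). *Impa2* was found in 69.38% of the cells of these subclusters and in 28.10% of the others, and *Psmb9* in 84.77% and 42.64%. For *Pdcd1*, 1 gene had the same set, the ligand gene *Lgals3* named above, and *Gsn*, which encodes gelsolin, came next (index 0.80). For *Tnfrsf18*, 43 genes had the same pair of subclusters, and the nearest were *Rnf128* (0.9 points) and *Ahcyl2* (1.0 points). *Rnf128* was found in 74.57% of the cells of subclusters 0 and 3 and in 47.53% of the others, whereas the shares of *Tnfrsf18* were 75.41% and 75.93%.

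Among all sorted cells, the shares were of another kind and are not on 1 scale with those above. *Cd28* was above 0 in 82.15% of all sorted cells but in 5.56% of ILC2s. The cell types ILC2 and ILC2_2 made up 45.00% of the sorted cells, so if the reclustered ILC2s are those cells, detection could not exceed 57.50%. *Cd3e* gave the same picture (83.48%, with at most 57.59% possible), and *Foxp3*, the transcription factor of regulatory T cells, was above 0 in 41.5% of cells outside the Treg cluster. A value above 0 in the cell type table therefore cannot be read as detection of a transcript, and its shares are compared within this table only. Cell type names are those of the table.

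The Treg cluster made up 2.06% of the sorted cells. It listed 4 of the 6 receptors with a row, all with a larger share inside, where 8.93% of the 1679 genes were listed. *Ctla4* was above 0 in 91.6% of its cells against 48.7% of all others, the largest difference of the 150 genes listed for Treg. *Tnfrsf4*, which encodes OX40, was above 0 in 76.8% against 47.0%, the 4th largest. *Icos* (85.4% against 72.5%) ranked 16 and *Cd28* (88.6% against 82.0%) ranked 41. Of the Treg markers, *Foxp3* (71.9% against 41.5%) and *Ikzf2* (77.9% against 69.2%) were listed, and *Il2ra*, which encodes CD25, was not listed for Treg. Of the 150 Treg listings, 77 (51.3%) had no larger share inside, in contrast to the 4 receptors.

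The CD4 cluster listed the same 4 receptors, where 7.80% of genes were listed, but only *Cd28* had a larger share inside (91.7% against 81.8%). *Ctla4* was above 0 in 40.0% of CD4 cells against 49.9% of the others, *Icos* in 66.0% against 73.0%, and *Tnfrsf4* in 33.3% against 48.1%. Of the 131 CD4 listings, 76.3% had no larger share inside. The difference for *Tnfrsf4* thus was 29.8 points in Treg and -14.8 points in CD4, and for *Ctla4* it was 42.9 and -9.9 points. The difference between these clusters could not be tested without values per library.

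*Ctla4* was listed for 1 further cell type, ILC2_2 (60.4% against 49.4%). The main ILC2 cluster, 43.22% of the sorted cells, listed 0 of the 6 receptors, where 8.10% of genes were listed. *Icos* was listed for 6 cell types. It was above 0 in 89.9% of ILC3 cells against 72.4%, in 84.7% of gdT_TypeIII_ITGAE cells against 72.6%, and in 75.7% of gdT_TypeIII_CD163l1 cells against 72.7%. The ILC3 cluster also listed 5 of 9 T cell markers, 4 with a larger share inside, where 9.11% of the 1679 genes were listed. Of its 153 listings, 11.1% had no larger share inside. Among these markers were *Cd3e* (91.4% against 83.3%) and *Cd3g* (97.1% against 85.3%), and *Tcrg-C1* was listed too (62.7% against 53.7%). The part of T cells in the *Icos* share of ILC3 was not tested. In ILC2_2 the *Icos* share was below that of the other cells (62.4% against 72.9%). ILC2_2 listed these 2 of the 6 receptors, where 11.9% of the 1679 genes were listed, and 53.0% of its 200 listings had no larger share inside. Markers of other cells listed for ILC2_2 went both ways. *Igkc* (33.8% against 21.1%), *Pecam1* (73.8% against 46.7%) and *Trdv4* (61.8% against 45.5%) had a larger share inside, and *Trdv4* was also listed for the main ILC2 cluster (57.8% against 36.7%). *Cd4* (47.8% against 54.6%), *Trbc1* (66.4% against 87.6%), *Ikzf2* (52.2% against 69.7%) and *Tbx21* (33.6% against 52.1%) had a smaller one. Their part in the *Ctla4* share of ILC2_2 was not tested.

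*Pdcd1* was listed for a pair of gamma delta T cell clusters. In gdT_TypeIII_CD163l1 it was above 0 in 69.0% of cells against 37.0%, a difference ranking 13 of 191 genes, and in gdT_Naive in 31.4% against 37.8%. *Cd28* had the most listings of the receptors, 7 cell types, and its shares inside ran from 79.8% in CD8_Effector to 92.2% in gdT_TypeI. The remaining shares were 86.9% in CD8_Naive, 83.0% in NK and 81.9% in gdT_Naive. *Cd28* was above 0 in 79.65% of the cells of all other types together. The difference reached 10 points in gdT_TypeI alone (92.2% against 80.8%). *Tnfrsf9*, which encodes 4-1BB, was listed for ILC1 alone (58.9% against 52.7%).

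**Figure D4:**
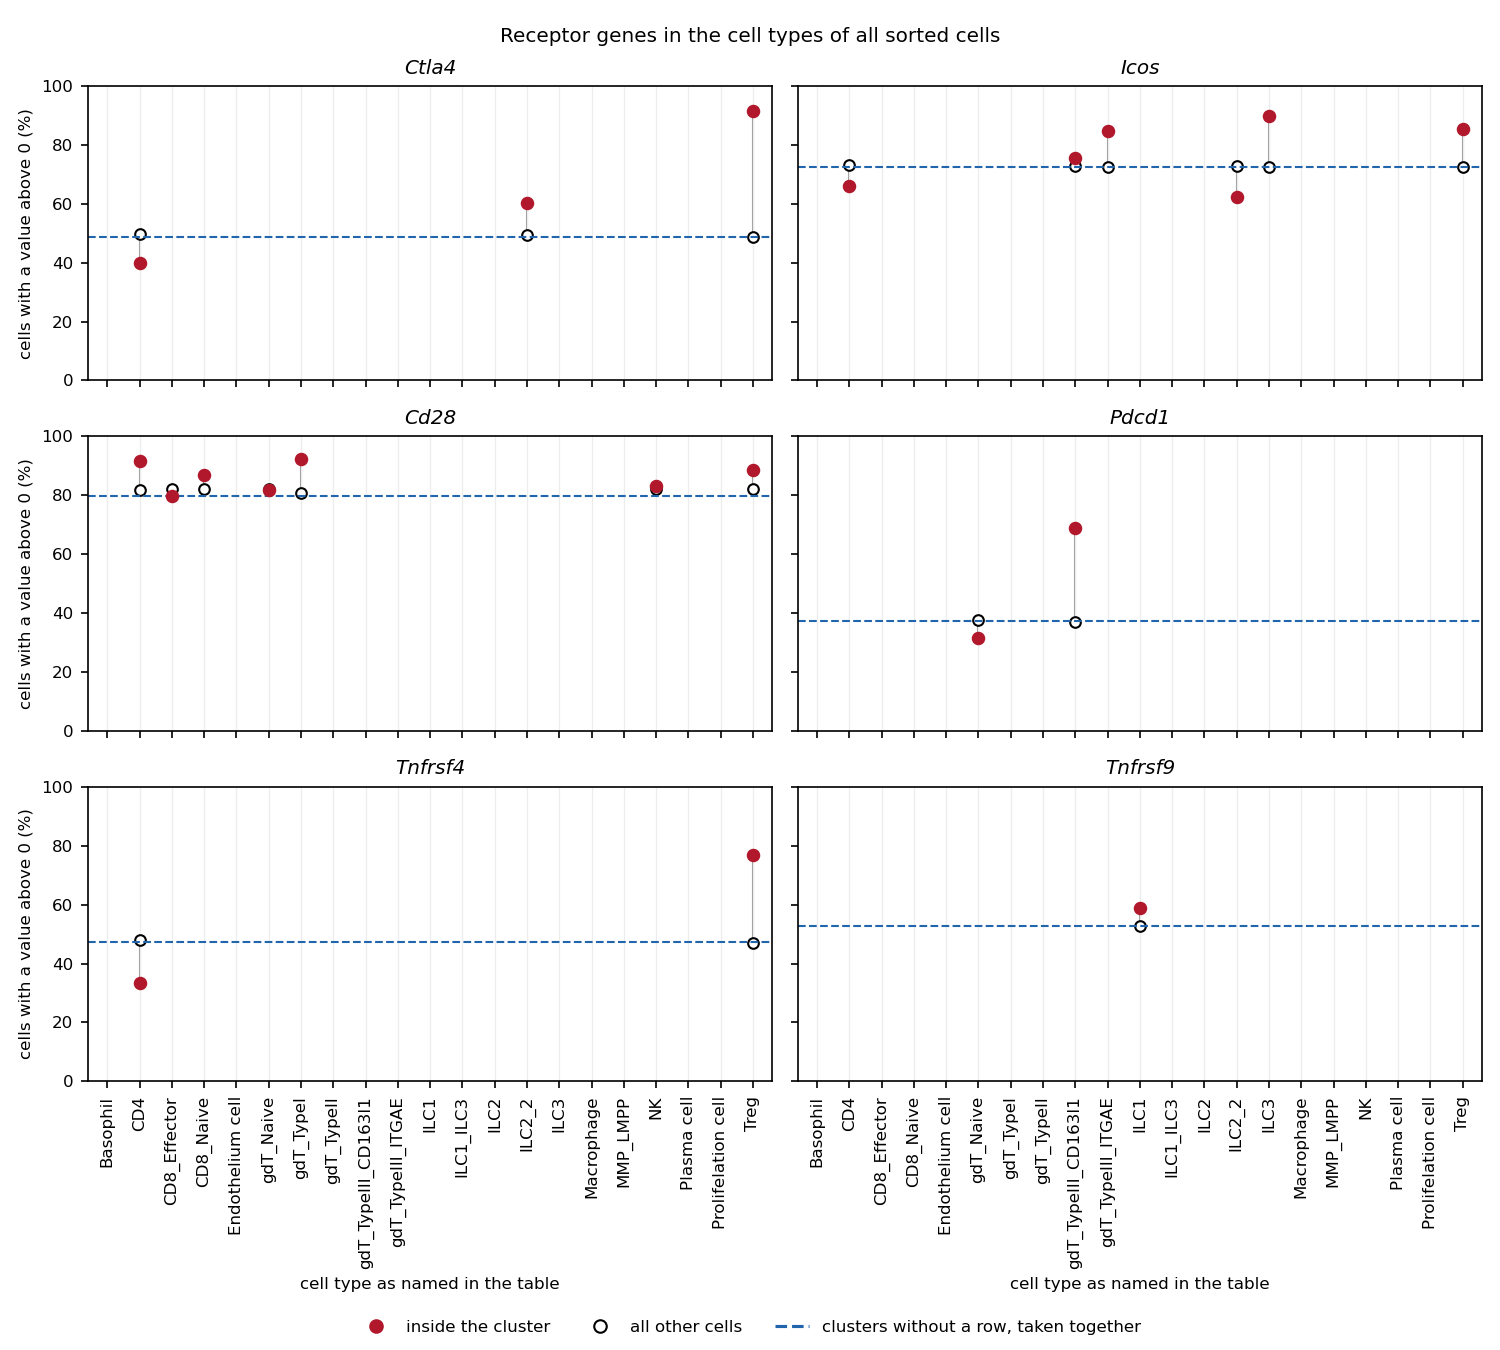
Cells with a value above 0 (percent, vertical axis) for the 6 receptor genes with a row in the cell type table, by cell type (horizontal axis). Symbols are as in the plot of subclusters. *Ctla4* (91.6%) and *Tnfrsf4* (76.8%) in Treg and *Pdcd1* in gdT_TypeIII_CD163l1 (69.0%) stand farthest above the dashed line.

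Across cell types, *Tnfrsf4* was the gene with listings most like those of *Ctla4* (index 0.67, mean difference 10.8 points over CD4 and Treg), followed by *P4ha1* (0.67, 12.7 points). *P4ha1* and *St8sia6* had the same pair of cell types as *Tnfrsf4*. *Gramd3* had the same 7 cell types as *Cd28* (6.6 points), and *Ms4a4b* shared them with 1 more (0.88). *Crip1* and *Slamf1*, which encodes a coreceptor of lymphocytes, were most like *Icos* (0.71 each), and *Auts2* (0.67) and the gamma delta receptor gene *Tcrg-C2* (0.50) most like *Pdcd1*.

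Of the lists, 3 of 12 ligand genes had a row in the cell type table, and *Nectin2*, a ligand of TIGIT, was above 0 in 70.5% of endothelial cells against 8.4%. *Cd86*, a ligand of CD28 and CTLA-4, was above 0 in 59.4% of plasma cells against 37.9% and in 39.5% of Treg cells against 37.9%. *Lgals3* reached 99.7% of basophils against 71.9%. Of 16 other TNF receptor genes, 3 had a row, and their largest differences lay in plasma cells for *Tnfrsf13c* (76.5% against 31.1%), MMP_LMPP for *Tnfrsf13b* (72.4% against 38.9%) and gdT_TypeI for *Cd27* (86.1% against 73.3%). Of 17 coreceptors, 12 had a row, led by *Havcr2*, which encodes TIM-3, in macrophages (94.7% against 28.3%) and *Cd160* in the cluster named Prolifelation cell (87.0% against 35.4%). Of 20 adaptors and phosphatases, 6 had a row, led by *Ptpn6* in macrophages (97.9% against 61.7%). Of 18 transcription factors, 12 had a row, led by *Irf4* in MMP_LMPP (98.4% against 32.2%) and *Tox2* in endothelial cells (85.3% against 20.6%). Of the genes with a row, the Treg cluster (8.93% of all genes with a row) listed 5 of 12 coreceptors, 4 of 6 adaptors and 5 of 12 transcription factors, with a larger share inside for 4, 2 and 4. The CD4 cluster (7.80%) listed 5, 3 and 1 of them, with a larger share inside for 2, 2 and 0.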

How the data were processed

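Liver and lung cells of 4 groups, 1 library each, were profiled by the authors with droplet-based 3′ single-cell RNA sequencing. Reads were processed with Cell Ranger against mm10 according to the submitters' notes, with versions not given in the sources used here. Cells were clustered with Seurat, and each cluster was compared with all other cells. Doublets were taken out by the authors at the sort, and no doublet caller was run here because the tables hold no cells. The assay behind each marker table was not stated.

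The deposited tables give, for each gene and cluster, the fraction of cells with a value above 0 inside the cluster and a fraction of the same kind (other cells), to 3 decimals, printed here as percentages. Other deposited columns hold the authors' fold changes and p-values, which are the study's comparisons. They were not used, except that 0 rows were found to be lower on average inside a cluster. There were 0 further columns of values.

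Cluster sizes were solved by least squares (numpy 2.4.6, pandas 2.3.3) from the identity that the share outside plus the size times the difference of shares equals the share in all cells, over genes with at least 2 listings. Solved sizes summed to 100.05% for cell types and 100.16% for ILC2 subclusters, and the fit was tested on simulated data. The share in all cells, the share in the clusters without a listing and the part of positive cells followed from the sizes. Bounds combine the rounding error of a share (0.05 points) and 2 standard errors of the sizes. No test was run, because the tables hold no value per library. Alternatives changed the fit of sizes and the share that counts as a listing.

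The receptors and gene lists were chosen with earlier results of these data known. All receptors were named, with up to 3 genes per list and table by difference of shares, and up to 2 genes most alike per receptor with at least 2 listings in a table.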

Additional observations from a re-analysis of the deposited data

How the results depend on the processing

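Over 93 alternative values, the largest shift of a solved size was 0.032 points, and some shifts exceeded the standard error of the fit. Subcluster 4 moved from 9.233% to 9.211% with genes of at least 3 listings, with a standard error of 0.0113 points. Derived shares of the receptors stayed within their bounds or the rounding error in 121 of 121 alternatives, with a largest shift of 0.13 points. The alternatives used genes with more listings, sizes forced to a sum of 100%, or least absolute deviations, and for the derived shares also the share in all cells from the largest listing cluster. Of the 21 listings in the cell type table, 14 had a larger share inside and 8 a share at least 10.0 points larger. Over all genes, 723 of 4422 listings there (16.4%) had no larger share inside, against 7 of 21 for the receptors. For the ILC2 subclusters, 12 of 13 receptor listings had a larger share inside and 11 a share at least 10.0 points larger. Over all genes, 1104 of 3745 subcluster listings (29.5%) had no larger share inside, against 1 of 13 for the receptors. Most of those 1104 listings (978) belonged to subcluster 5. The listings of *Ctla4* in 5 subclusters all met the stricter limit, whereas neither listing of *Tnfrsf18* did. Listing counts of single receptors were less stable than the shares, and stayed close to the main count in 24 of 33 alternatives. Under the stricter limit *Cd28* fell from 7 cell types to 1, and *Icos* from 6 to 3. No paired analysis was possible because there was only 1 library per group and the shares are pooled over libraries. The tables give neither depth nor cell numbers, so no counting error is given, and it is largest for shares in the smallest subclusters (0.61% to 1.42% of ILC2s).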
